A study of Mus musculus with 20 samples.

Results

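The 42 genes described here encode ribosome biogenesis factors: subunits of RNA polymerase I and the nucleolar proteins that modify, cut and assemble ribosomal RNA. They were chosen by symbol from a list of such factors, and all 42 were found among the 24421 genes of the count table. All 42 also passed the filter on low counts, which left 12465 genes tested. Expression was measured by RNA sequencing in bone marrow-derived dendritic cells (BMDCs), which were grown for 8 days from bone marrow of C57BL/6 mice with 40 ng/mL GM-CSF, a growth factor that drives myeloid cells in culture. The cells were given iBET (I-BET151, 3.3 µM, an inhibitor of the BET bromodomain proteins, which read acetylated histones) or its solvent DMSO, labelled 5%. For 4 hours they were also exposed to ovalbumin alone (Ova) or to immune complexes of ovalbumin and rabbit anti-ovalbumin antibody (IC), which cross-link Fcγ receptors. All 4 groups thus received GM-CSF and ovalbumin antigen, and each group held 1 library from each of 5 mice, A to E. The labels do not say whether a mouse's 4 libraries came from 1 culture.

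Ribosomes are built in the nucleolus, where RNA polymerase I copies the ribosomal DNA into a long precursor RNA. Small nucleolar ribonucleoprotein particles (snoRNPs) then guide chemical changes on that RNA, the box C/D kind adding methyl groups to ribose and the box H/ACA kind turning uridine into pseudouridine. Large sets of helicases, GTPases, nucleases and scaffold proteins cut the precursor and fold it with ribosomal proteins into the small and the large subunit.

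Promoter sequence is shown for the 3 members with the highest and the 2 with the lowest iBET log2 fold changes with Ova, as the 150 bases before the RefSeq start on GRCm38.p6, 5′ to 3′ on the strand of the gene, with motif matches in capitals.
Nop56: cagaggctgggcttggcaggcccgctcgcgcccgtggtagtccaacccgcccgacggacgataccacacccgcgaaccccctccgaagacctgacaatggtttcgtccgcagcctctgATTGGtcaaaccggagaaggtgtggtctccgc
Nop10: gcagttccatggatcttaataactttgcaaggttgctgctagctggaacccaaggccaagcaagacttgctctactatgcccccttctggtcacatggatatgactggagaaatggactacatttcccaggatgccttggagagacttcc
Ncl: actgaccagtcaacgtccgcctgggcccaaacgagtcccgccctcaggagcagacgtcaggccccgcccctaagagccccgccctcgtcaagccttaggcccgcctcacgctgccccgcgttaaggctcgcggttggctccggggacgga
Gar1: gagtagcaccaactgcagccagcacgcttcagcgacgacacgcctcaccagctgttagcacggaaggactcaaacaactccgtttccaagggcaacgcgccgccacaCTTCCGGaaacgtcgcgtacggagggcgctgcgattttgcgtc
Utp20: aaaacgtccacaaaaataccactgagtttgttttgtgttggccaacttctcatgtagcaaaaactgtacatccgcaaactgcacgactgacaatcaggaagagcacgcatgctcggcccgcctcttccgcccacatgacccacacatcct
These stretches are at chr2:130274262-130274411, plus strand for Nop56, chr2:112261776-112261925, plus strand for Nop10, chr1:86359456-86359605, minus strand for Ncl, chr3:129831397-129831546, minus strand for Gar1 and chr10:88826815-88826964, minus strand for Utp20. Nop56, Nop10 and Ncl were higher with iBET, and Gar1 and Utp20 were lower. The capitals mark a CCAAT box, read on the other strand, before Nop56 and an ETS motif, also on the other strand, before Gar1. The shown bases of Nop10, Ncl and Utp20 held none of the 4 motifs searched.

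The motif search covered 250 bases before each RefSeq start, on both strands, for 37 members with an entry. Npm1, Fbl, Bop1, Rrp12 and Rrs1 had no entry. The ETS motif CCGGAAG was in the promoters of 9 of the 37 members, 24.3%, and in 7.83% of the 27025 genes with an entry. The E-box CACGTG was in 3 members (Imp4, Nop2 and Utp18), 8.11%, against 6.86% of all genes. CCAAT was in 12 members, 32.4%, against 37.5%, and TATAAA was in 2 members (Dkc1 and Pes1), 5.41%, against 14.3%. The 27025 genes were not limited to those expressed in these cells, whereas every member passed the filter on low counts. The shares thus do not compare the members with genes of like expression. A match describes the letters alone.

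Libraries held 16447491 to 29245150 counts, with a median of 21764663. Gene positions are from GENCODE M21 on GRCm38. Member genes had between 39 counts (Gar1) and 13965 counts (Npm1) in a library. Levels are CPM, a count as a share of its library's depth, adjusted by the trimmed mean of M-values (TMM), and fold changes and adjusted p-values are from edgeR's quasi-likelihood test over all 12465 genes, called at an adjusted p under 0.05. On the second principal component of all tested genes, with 14.9% of the variance, mice C, D and E scored 9.83 to 23.5 and mice A and B scored -33.8 to -18.6. The study's methods mention removal of batch effects but the sources used here assign no library to a batch, so values within these sets of mice are given beside the pooled ones for the called members described where they differ by over 2 times. Of the 11 dendritic cell and macrophage markers, Itgax (CD11c) was at 1718 to 2725 CPM, and the macrophage-associated receptors Csf1r and Adgre1 were at 485 to 1235 and 121 to 177 CPM. The antigen presentation genes varied more, with Cd74 at 1859 to 5368, H2-Aa at 203 to 870 and their regulator Ciita at 0.606 to 80.5 CPM. Flt3, a receptor of conventional dendritic cells, was at 0.121 to 4.94 CPM, and the lymphocyte markers summed to at most 0.545 CPM. Neutrophil and granule markers (7 of 9 in the table tested) summed to 12.8 to 56.7 CPM, and mast cell, basophil and eosinophil markers (5 of 9 tested) to 23.8 to 116 CPM.

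With iBET, ribosome biogenesis genes moved in both directions. In the Ova groups 16 members were higher and 9 lower with iBET than with DMSO, so that 59.5% were called. Of all genes tested 56.6% were called, 27.7% higher and 28.9% lower. In the IC groups 13 members were higher and 11 lower, 57.1% in all, against 56.1% of all genes, 27.1% higher and 29.0% lower. The median log2 fold change of the members was 0.05 under Ova and -0.01 under IC, beside -0.0029 and -0.0054 over all genes. Members thus passed the test about as often as genes did in general. Mice A and B alone gave 17 called members with Ova and 14 with IC, where 43.9% and 41.9% of all genes were called. Mice C, D and E alone gave 18 and 22, beside 58.6% and 57.4% of all genes.

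Across the 42 genes the iBET log2 fold changes ran from -0.92 (Gar1) to 0.96 (Nop56) with Ova and from -1.16 (Gar1) to 0.87 (Ncl) with IC. A set of 13 members was higher under both stimuli and 6 were lower under both. No member was called in opposite directions. Another 3 (Utp18, Nop14 and Nop2) were called higher and 3 (Bms1, Pes1 and Wdr12) lower with Ova alone, 5 (Polr1b, Dkc1, Nhp2, Ebna1bp2 and Rrs1) were called lower with IC alone, and 12 passed in neither comparison. The share of all genes in sets of this kind is not given here, so the sets are not read as particular to the members. The sets also depended on the fit. With the mouse as a block, which called 68.7% of all genes with Ova and 68.0% with IC, 15 members were higher and 9 lower under both stimuli. Nop14, Nop2, Pes1 and Wdr12 then passed with IC too (adjusted p = 0.0292, 0.0159, 0.0426 and 0.0223), Polr1b passed with Ova, and Noc2l, one of the 12, was called lower with Ova (adjusted p = 0.0325). The test of the difference, given at the end, called none of the members, so these calls under 1 stimulus do not show a different response. Each stimulus has its own DMSO libraries, from the same mice.

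**Figure D1:**
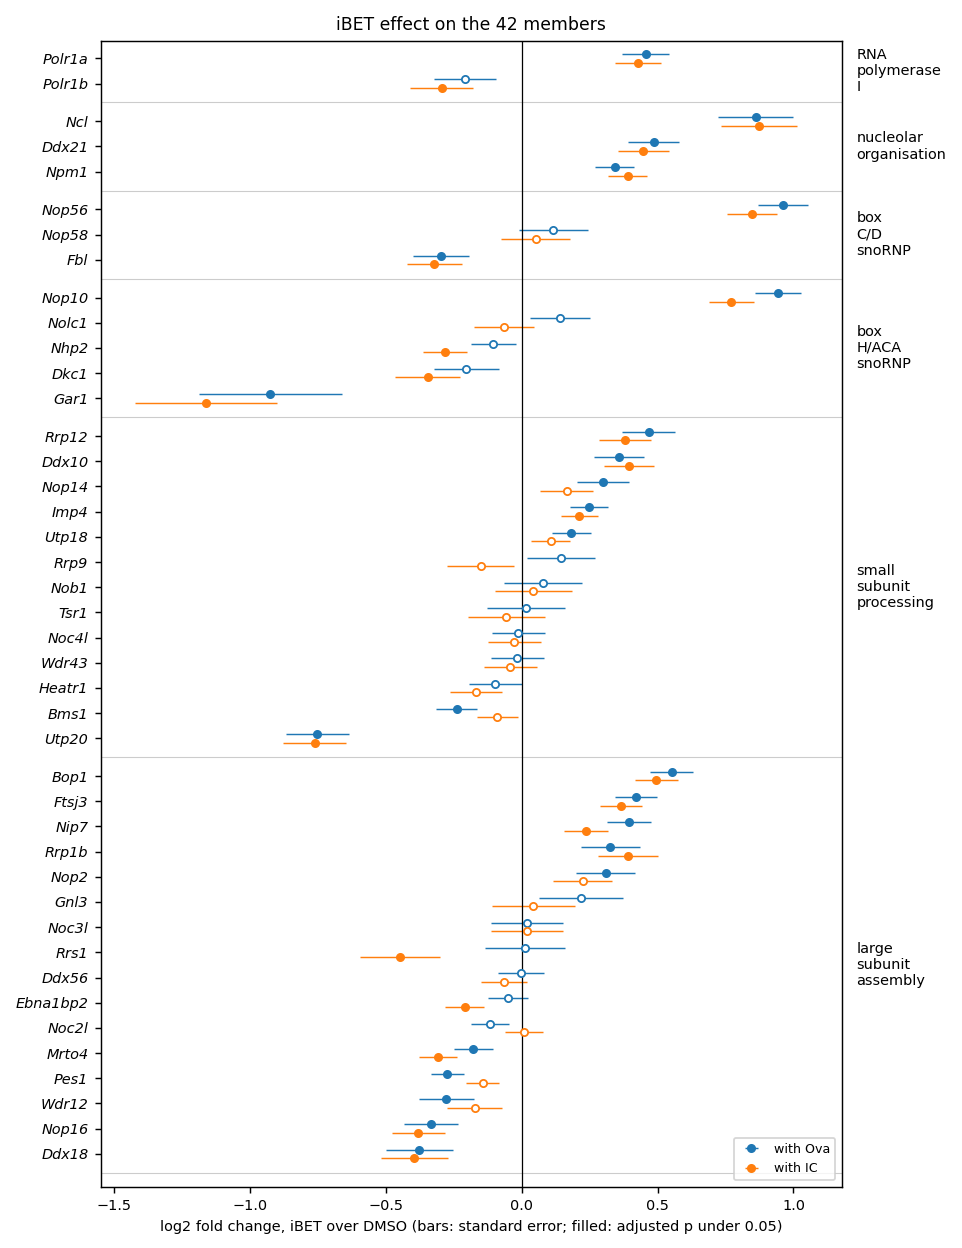
Log2 fold change of iBET over DMSO (x axis) for the 42 members, grouped by role, with Ova (blue) and with IC (orange). Points are edgeR estimates, bars are standard errors and filled points have an adjusted p under 0.05, and 16 members with Ova and 13 with IC are filled to the right of 0.

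The subunits of RNA polymerase I came out on different sides. Polr1a (chr6:71909053-71984935, plus strand) encodes the largest, catalytic subunit and had 39.7, 37.2, 41.5, 33.7 and 38.5 CPM in mice A to E with DMSO and Ova, and 57.5, 52.3, 53.1, 44.0 and 54.6 CPM with iBET and Ova. All 5 iBET libraries lay above all 5 DMSO libraries. iBET gave Polr1a a log2 fold change (with its standard error, SE) of 0.46 (SE 0.0859, adjusted p = 0.000145) under Ova and 0.43 (SE 0.0859, adjusted p = 0.000281) under IC, and it was higher in 5 of 5 mice under each stimulus.

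Polr1b (chr2:129100995-129126594, plus strand), which encodes the second largest subunit, had 19.7, 15.1, 21.5, 16.2 and 18.3 CPM with DMSO and Ova and 16.7, 15.7, 17.4, 12.8 and 16.1 CPM with iBET and Ova. The groups overlapped, and mouse B alone was higher with iBET. Its log2 fold change of -0.21 (SE 0.115, adjusted p = 0.131) did not pass with Ova, but did with the mouse as a block (adjusted p = 0.0167). In the IC groups the DMSO libraries were at 18.1, 16.2, 19.4, 14.5 and 18.0 CPM and the iBET libraries at 13.8, 16.2, 16.0, 11.3 and 12.9 CPM, and the groups overlapped. iBET thus changed Polr1b by -0.29 (SE 0.116, adjusted p = 0.0366) on the log2 scale, and without mouse A, C or E the adjusted p was 0.119, 0.0602 and 0.160.

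The row Rn45s, named for the precursor ribosomal RNA that RNA polymerase I makes, took 2.69% to 8.61% of the counts of a library. Mature rRNAs are cut from that precursor, and their reads may fall in the same row. The row thus does not measure precursor RNA or RNA polymerase I output. For iBET the log2 fold change of the row was 0.18 (SE 0.265, adjusted p = 0.589) under Ova and 0.20 (SE 0.265, adjusted p = 0.536) under IC, neither past the threshold. The spread of this row between mice of 1 group, 25851 to 72810 CPM with DMSO and Ova, was wider than the difference between groups.

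All 3 genes of the nucleolar organisation class were higher with iBET under both stimuli, where 27.7% (Ova) and 27.1% (IC) of all genes were called higher. Ncl (chr1:86344719-86359400, minus strand) encodes nucleolin, an abundant RNA-binding protein of the nucleolus. It had 134, 148, 163, 163 and 190.2 CPM with DMSO and Ova and 214, 344, 285, 293 and 312 CPM with iBET and Ova. In the IC groups Ncl was at 116, 165, 179, 211 and 170.0 CPM in DMSO libraries and 253, 309.8, 314, 332 and 332 CPM in iBET libraries. The groups did not overlap under either stimulus, and mouse A was the lowest of the 5 in each group. Its log2 fold change was 0.86 (SE 0.14, adjusted p = 2.88e-05) under Ova, a fold of 1.82, and 0.87 (SE 0.139, adjusted p = 2.41e-05) under IC. Exons annotated for Ncl share 133 bases with Snora75, a small nucleolar RNA gene on the same strand, and how reads in such overlaps were counted is not given in the sources used here.

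Ddx21 (chr10:62580251-62602281, minus strand), a nucleolar RNA helicase, had 104, 88.5, 119, 110.5 and 129 CPM with DMSO and Ova and 129, 159.5, 165, 149 and 169.6 CPM with iBET and Ova. The highest DMSO library and the lowest iBET library nearly coincided, and within each mouse iBET was higher. On the log2 scale the change was 0.49 (SE 0.0943, adjusted p = 0.000202) under Ova and 0.45 (SE 0.0942, adjusted p = 0.000454) under IC.

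Npm1 (chr11:33152287-33163206, minus strand) encodes nucleophosmin, a histone chaperone that shuttles ribosomal particles. It had 369, 355, 349, 390.2 and 426 CPM with DMSO and Ova and 444, 544, 483, 465 and 460.3 CPM with iBET and Ova, and the groups did not overlap. iBET gave Npm1 a log2 fold change of 0.34 (SE 0.0709, adjusted p = 0.000387) under Ova and 0.39 (SE 0.0709, adjusted p = 0.000102) under IC, higher in 5 of 5 mice each time. Npm1 has processed pseudogene copies in the mouse genome, and its counts are uncertain to the extent that reads fitting several loci were counted. The members' summed level was 1968 ± 166 CPM with DMSO and Ova, 2094 ± 108 with DMSO and IC, 2316 ± 131 with iBET and Ova and 2415 ± 62.4 with iBET and IC (SD, n = 5 each). The Ova groups overlapped slightly in this sum and the IC groups did not. Npm1 and Ncl made up 24.5% to 36.7% of that sum in a library, and without them the other 40 members summed to 1430 ± 143, 1532 ± 86.2, 1547 ± 91.0 and 1591 ± 51.7 CPM (SD, n = 5) in the same order.

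Protein genes of the snoRNPs went opposite ways within the same particle. Of the 3 core box C/D genes, Nop56 was higher, Fbl lower and Nop58 (24.5 to 42.9 CPM over the 20 libraries) did not pass in either comparison. Nop56 (chr2:130274430-130279313, plus strand), a scaffold protein of the particle, had 57.4, 45.5, 61.0, 43.9 and 60.3 CPM with DMSO and Ova and 105, 105, 114, 88.4 and 109.9 CPM with iBET and Ova. Under IC the values were 52.9, 51.6, 55.4, 44.2 and 54.4 CPM (DMSO) and 93.9, 94.8, 95.9, 88.4 and 91.9 CPM (iBET). Every iBET library exceeded every DMSO library. Nop56 thus had a log2 fold change of 0.96 (SE 0.0927, adjusted p = 3.48e-08) under Ova, a fold of 1.95, and 0.85 (SE 0.0926, adjusted p = 1.96e-07) under IC. Exons of Nop56 share 72 bases with the small nucleolar RNA gene Snord57 on the same strand.

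Fbl (chr7:28169710-28179269, plus strand) encodes fibrillarin, the methyltransferase of the box C/D particle. It had 45.8, 42.7, 49.7, 52.1 and 52.8 CPM with DMSO and Ova and 33.4, 35.3, 40.9, 39.4 and 48.9 CPM with iBET and Ova. These groups overlapped, although each mouse was lower with iBET. Under IC the DMSO libraries held 43.4, 57.5, 61.1, 62.9 and 61.1 CPM and the iBET libraries 44.1, 44.8, 46.7, 45.1 and 48.3 CPM, and mouse A did not share the fall of the other 4. The log2 fold change of Fbl was -0.30 (SE 0.102, adjusted p = 0.0179) under Ova and -0.32 (SE 0.102, adjusted p = 0.0112) under IC. In fits without the mouse block the calls depended on single mice. Without mouse B, C or D the adjusted p was 0.0704, 0.0780 and 0.0826 with Ova and 0.0534, 0.0716 and 0.0718 with IC. With all 5 mice and the mouse as a block it was 0.000765 with Ova and 0.000594 with IC. Mice A and B alone gave -0.17 with IC (adjusted p = 0.339), and mice C, D and E alone gave -0.38.

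In the box H/ACA particle, whose catalytic subunit is the pseudouridine synthase Dkc1, the gene for its small protein Nop10 was higher and Gar1 lower. Nop10 (chr2:112261926-112263269, plus strand) had 19.7, 17.1, 14.4, 16.1 and 14.3 CPM with DMSO and Ova and 35.1, 29.9, 31.6, 30.4 and 29.9 CPM with iBET and Ova. Under IC, DMSO libraries were at 21.1, 21.6, 20.4, 19.9 and 17.2 CPM and iBET libraries at 36.4, 34.8, 34.0, 33.7 and 31.9 CPM. The groups did not overlap under either stimulus. On the log2 scale Nop10 rose by 0.94 (SE 0.0844, adjusted p = 1.26e-08) under Ova, a fold of 1.92, and by 0.77 (SE 0.0836, adjusted p = 1.73e-07) under IC.

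Gar1 (chr3:129824912-129831396, minus strand), which encodes a subunit that binds the catalytic one, had 4.64, 3.02, 5.56, 5.78 and 7.75 CPM with DMSO and Ova and 1.58, 2.77, 3.44, 2.75 and 3.64 CPM with iBET and Ova. In the IC groups Gar1 was at 3.66, 5.26, 8.03, 7.79 and 6.46 CPM in DMSO libraries and 2.37, 3.30, 3.67, 1.86 and 2.78 CPM in iBET libraries. Each mouse was lower with iBET, mouse B with Ova by the smallest step, and the groups overlapped slightly under both stimuli. For Gar1 the log2 fold change was -0.92 (SE 0.264, adjusted p = 0.00552) under Ova, a fold of 0.527, and -1.16 (SE 0.262, adjusted p = 0.000849) under IC. With mice A and B alone the log2 fold change was -0.88 with Ova (adjusted p = 0.0685) and -0.64 with IC (adjusted p = 0.143), and with mice C, D and E alone it was -0.90 and -1.40. As the member with the fewest counts, Gar1 also carried the widest standard errors of the 42.

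The other box H/ACA genes moved less. Dkc1 fell with IC, from 14.2 ± 0.997 to 11.2 ± 0.993 CPM (SD, n = 5), and did not pass with Ova. The IC log2 fold change of Dkc1 was -0.17 in mice A and B and -0.43 in mice C, D and E, and without mouse C or E the adjusted p was 0.0896 and 0.0731. Nhp2, another subunit of the particle, fell with IC, from 53.9 ± 4.55 to 44.2 ± 1.84 CPM (SD, n = 5), and did not pass with Ova. Nolc1, a chaperone that accompanies both kinds of snoRNP, passed in neither iBET comparison.

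**Figure D2:**
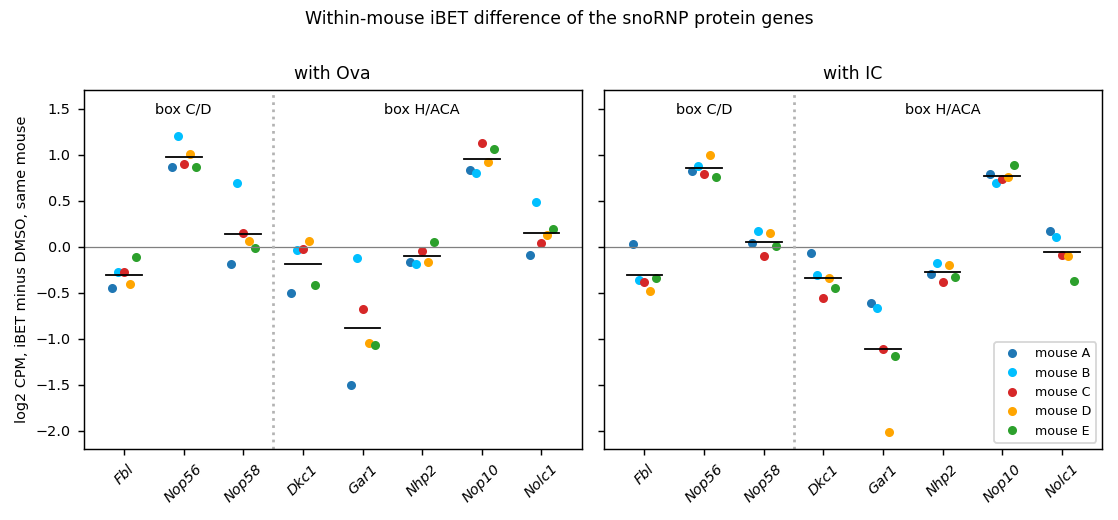
Difference in log2 CPM between the iBET and the DMSO library of the same mouse (y axis) for the 8 snoRNP protein genes, with Ova (left) and with IC (right), each point a mouse and each line the mean of 5. Nop56 and Nop10 lie above 0 in 5 of 5 mice in both panels and Gar1 lies below 0 in 5 of 5.

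**Figure D3:**
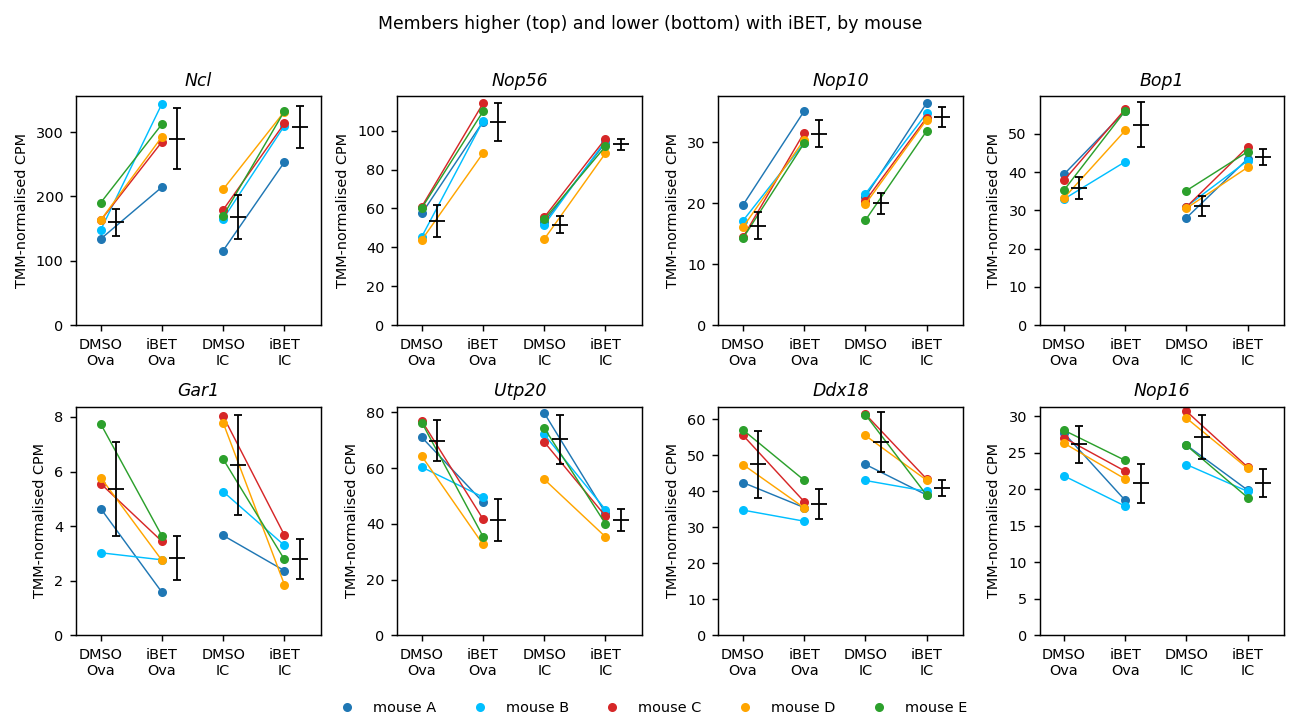
CPM of 8 members in each library (y axis, from 0) in the 4 groups, with lines joining the DMSO and the iBET library of a mouse and black marks giving mean and SD beside the points. The top row holds genes higher and the bottom row genes lower with iBET, and the Nop56 and Utp20 groups do not overlap under either stimulus.

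Among 13 genes for small subunit processing, 5 were higher and 2 lower with Ova, and 3 were higher and 1 lower with IC. That is 53.8% called with Ova and 30.8% with IC, beside 56.6% and 56.1% of all genes. Utp20 (chr10:88746607-88826804, minus strand), a very large scaffold protein of the small subunit precursor, had 71.0, 60.4, 76.9, 64.3 and 76.3 CPM with DMSO and Ova and 47.8, 49.6, 41.7, 32.6 and 35.4 CPM with iBET and Ova. Under IC the values were 79.7, 72.1, 69.4, 56.0 and 74.4 CPM (DMSO) and 44.0, 45.1, 42.8, 35.3 and 40.0 CPM (iBET). All 10 iBET libraries lay below all 10 DMSO libraries. This is a log2 fold change of -0.75 (SE 0.116, adjusted p = 1.55e-05) under Ova, a fold of 0.594, and -0.76 (SE 0.116, adjusted p = 1.32e-05) under IC. Under Ova the log2 fold change was -0.94 in mice C, D and E alone and -0.44 in mice A and B alone.

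In the same class Rrp12, which takes part in exporting subunits, Ddx10, an RNA helicase, and Imp4, a protein of the particle that makes the first cuts, were higher under both stimuli. Rrp12 went from 18.3 ± 2.39 to 25.2 ± 3.07 CPM and Ddx10 from 25.5 ± 2.86 to 32.7 ± 4.72 CPM with Ova (SD, n = 5). Nop14 and Utp18, both parts of the early processing complex, were called higher with Ova and not with IC. With the mouse block Nop14 passed with IC too, and Utp18 did not (adjusted p = 0.081). Bms1, the GTPase of that complex, was called lower with Ova, from 53.7 ± 2.99 to 45.5 ± 4.14 CPM, and not with IC. Under Ova Utp18 had a log2 fold change of 0.10 in mice A and B and 0.28 in mice C, D and E. The Ova calls were lost without mouse C or D for Utp18 (adjusted p = 0.127 and 0.135), without mouse B for Nop14 (0.0664) and without mouse C for Bms1 (0.0559), and the IC call of Imp4 was lost without mouse D (0.0598). The remaining 6 passed in neither comparison: Wdr43, Rrp9 and Heatr1 of the early complex, Noc4l and Tsr1, which act in assembly and maturation, and Nob1, the endonuclease that makes the last cut of the small subunit rRNA.

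Of the 16 genes for large subunit assembly, 5 were higher and 5 lower with Ova, and 4 were higher and 5 lower with IC. That is 62.5% called with Ova and 56.25% with IC, beside 56.6% and 56.1% of all genes. Bop1, Pes1 and Wdr12 encode the PeBoW complex, which is needed to process the large subunit rRNA, and these genes did not move together. Bop1 (chr15:76452989-76477277, minus strand) had 39.4, 33.0, 37.9, 33.2 and 35.3 CPM with DMSO and Ova and 55.9, 42.7, 56.5, 50.9 and 56.0 CPM with iBET and Ova, and the groups did not overlap. Its iBET effect on the log2 scale was 0.55 (SE 0.0784, adjusted p = 5.97e-06) under Ova and 0.50 (SE 0.0786, adjusted p = 2.22e-05) under IC. Pes1 fell with Ova from 81.8 ± 4.44 to 67.6 ± 4.67 CPM and Wdr12 from 19.9 ± 2.44 to 16.4 ± 1.86 CPM (SD, n = 5). With IC neither was called without the mouse block and both were with it. Under Ova the log2 fold change of Pes1 was -0.41 in mice A and B and -0.14 in mice C, D and E, where it did not pass (adjusted p = 0.0848). Without mouse A, C or E the adjusted p of Wdr12 was 0.0655, 0.101 and 0.0674, and with all 5 mice and the mouse block it was 0.00106.

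Ddx18 (chr1:121553835-121567989, minus strand), an RNA helicase, had 42.5, 34.8, 55.6, 47.5 and 57.1 CPM with DMSO and Ova and 35.5, 31.7, 37.2, 35.4 and 43.1 CPM with iBET and Ova. The groups overlapped, and every mouse was lower with iBET. Ddx18 had a log2 fold change of -0.38 (SE 0.123, adjusted p = 0.0133) under Ova and -0.39 (SE 0.122, adjusted p = 0.00968) under IC, while mice A and B alone gave -0.21 and -0.18 (adjusted p = 0.192 and 0.263) and mice C, D and E alone -0.42 and -0.48. Without mouse C or D the adjusted p with Ova was 0.0841 and 0.0589, and with all 5 mice and the mouse block it was 0.000389.

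Nop16 (chr13:54584185-54590090, minus strand), a factor of the large subunit precursor, had 27.7, 21.8, 27.0, 26.3 and 28.1 CPM with DMSO and Ova and 18.5, 17.7, 22.5, 21.4 and 23.9 CPM with iBET and Ova. Those groups overlapped, whereas with IC all DMSO libraries (23.4 to 30.7 CPM) lay above all iBET libraries (18.9 to 23.0 CPM). Nop16 had a log2 fold change of -0.33 (SE 0.0976, adjusted p = 0.00661) under Ova and -0.38 (SE 0.0975, adjusted p = 0.00247) under IC, and without mouse A the adjusted p with Ova was 0.0560. The Ova value was -0.46 in mice A and B and -0.21 in mice C, D and E (adjusted p = 0.0576).

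Rrs1 (chr1:9545408-9547455, plus strand), which helps to bring ribosomal proteins into the large subunit precursor, was called with IC alone. It had 21.5, 21.6, 26.7, 21.3 and 25.6 CPM with DMSO and IC and 18.2, 19.5, 19.1, 13.6 and 15.0 CPM with iBET and IC, and the groups did not overlap. Rrs1 had a log2 fold change of -0.45 (SE 0.146, adjusted p = 0.0133) under IC and 0.01 under Ova. Leaving out mouse C or E gave an adjusted p of 0.0552 and 0.0557, and mice A and B alone gave -0.17 (adjusted p = 0.515).

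Of the other 10 large subunit genes, Ftsj3, a methyltransferase-like factor (36.1 ± 4.64 to 48.4 ± 3.50 CPM with Ova; SD, n = 5), Rrp1b and Nip7 were higher under both stimuli. Nop2, an rRNA cytosine methyltransferase, was called higher with Ova and, with the mouse block, also with IC. The IC log2 fold change of Nip7 was 0.39 in mice A and B and 0.17 in mice C, D and E, and without mouse A its adjusted p was 0.0730. Leaving out mouse E lost the Ova calls of Nop2 and Rrp1b (adjusted p = 0.0512 and 0.0533). With all 5 mice and the mouse block these were 0.00225 and 2.18e-05. Mrto4, a relative of a ribosomal stalk protein, had a log2 fold change of -0.31 (SE 0.07, adjusted p = 0.000918) with IC, and -0.30 and -0.28 in the sets of 2 and 3 mice. With Ova its -0.18 (SE 0.0702, adjusted p = 0.0375) came from -0.32 in mice A and B and -0.03 in mice C, D and E (adjusted p = 0.786). That Ova call was lost without mouse A, B or C (0.191, 0.246 and 0.127) and with DESeq2 (0.0598). Ebna1bp2 was called lower with IC and not with Ova, from 28.1 ± 2.34 to 24.3 ± 1.72 CPM. Ebna1bp2 had a log2 fold change of -0.11 in mice A and B and -0.24 in mice C, D and E, and without mouse C or E the adjusted p was 0.114 and 0.108. Noc2l, Noc3l, Ddx56 (an RNA helicase) and Gnl3 (nucleostemin, a GTPase) passed in neither comparison. Noc2l shares 598 exon bases with Samd11 on the opposite strand, Tsr1 shares 1240 with Srr on the opposite strand, and Gnl3 overlaps the small nucleolar RNA genes Snord69 and Snord19 on its own strand. Whether reads were counted by strand is not given in the sources used here.

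A wider list of 113 other ribosome biogenesis genes, all tested, had 31 higher and 22 lower (27.4% and 19.5%) with iBET and Ova, and 29 higher and 27 lower (25.7% and 23.9%) with iBET and IC. Its median log2 fold change was 0.05 under each stimulus, and its summed level overlapped between DMSO (3565 to 4141 CPM) and iBET (3801 to 4151 CPM) with Ova. Proliferation markers leaned lower with iBET: of 18, 3 were higher and 7 lower with Ova, and 3 were higher and 10 lower with IC. That is 38.9% and 55.6% lower, beside 28.9% and 29.0% of all genes, with median log2 fold changes of -0.23 and -0.33. Higher were 16.7% each time, beside 27.7% and 27.1% of all genes. Summed levels were 916 to 1133 CPM (DMSO) and 822 to 1044 CPM (iBET) with Ova, and 802 to 1066 CPM and 727 to 896 CPM with IC. Dendritic cell and macrophage markers had 1 higher and 3 lower of 11 under each stimulus, with median log2 fold changes of -0.013 (Ova) and -0.0055 (IC). They summed to 10150 to 12011 CPM with DMSO and 11658 to 13516 CPM with iBET in the Ova groups, and to 11177 to 12965 CPM and 13150 to 15917 CPM in the IC groups. These sums weigh the most abundant genes, such as Csf2rb at 2518 to 5621 CPM, and do not show a rise of the markers in general. The part of either list in the members' values was not tested. In these bulk libraries a change in the share of cells of a type and a change in RNA per cell cannot be told apart. Myc, whose protein drives many ribosome biogenesis genes, had an iBET log2 fold change of 0.76 (SE 0.356, adjusted p = 0.0755) under Ova, higher in 5 of 5 mice, and 0.29 (SE 0.363, adjusted p = 0.523) with IC. With the mouse as a block the adjusted p with Ova was 2.02e-05.

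Immune complexes without iBET moved a smaller set. Both IC comparisons use the same libraries as the iBET comparisons, so the values are not independent of those above. In the DMSO groups 8 of the 42 members were higher and 0 lower with IC than with Ova, 19.0% in all, against 20.3% of all genes, 9.59% higher and 10.7% lower. At an unadjusted p under 0.05, 11 were higher and 1 lower by edgeR and by DESeq2 alike. The share of all genes at that unadjusted level is not given here, so this split is not read as particular to the members. The called genes were Nhp2, Nop10 and Nolc1 of the box H/ACA class, Rrp9, Rrp12 and Imp4 of the small subunit class, and Nip7 and Rrs1 of the large subunit class. With the mouse as a block 11 members were higher and 2 lower, where 18.3% of all genes were higher and 19.8% lower. With library size in place of TMM, which put the median of all genes at -0.13, 3 were higher and 1 lower, beside 4.67% and 20.8% of all genes. The members' median log2 fold change was 0.07 in the DMSO groups, beside -0.02 over all genes.

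Rrs1 had 19.1, 11.6, 17.1, 12.9 and 17.6 CPM with DMSO and Ova and 21.5, 21.6, 26.7, 21.3 and 25.6 CPM with DMSO and IC. All IC libraries lay above all Ova libraries, and mouse A made the smallest step. The log2 fold change was 0.57 (SE 0.146, adjusted p = 0.00936), a fold of 1.49. Without mouse C the adjusted p was 0.0585.

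Nolc1 (chr19:46075863-46085530, plus strand) had 32.4, 23.1, 33.1, 26.1 and 33.9 CPM with DMSO and Ova and 34.0, 34.4, 43.2, 37.8 and 46.1 CPM with DMSO and IC. The groups touched without overlapping, and each mouse was higher with IC. Its log2 fold change was 0.40 (SE 0.11, adjusted p = 0.015). Without mouse C or D the adjusted p was 0.0609 and 0.0750.

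Rrp9 (chr9:106475963-106485424, plus strand), a protein of the snoRNP that guides the first cuts of the precursor, had 18.6, 12.4, 17.2, 12.8 and 18.7 CPM with DMSO and Ova and 20.2, 19.6, 22.4, 18.7 and 23.3 CPM with DMSO and IC. The highest Ova library and the lowest IC library lay at about the same level. Its log2 fold change was 0.39 (SE 0.123, adjusted p = 0.0319), with every mouse higher. Without mouse B, C, D or E the adjusted p was 0.0564, 0.120, 0.108 and 0.0576, and of the 5 mice A alone could be left out without losing the call.

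With library size only, the adjusted p was 0.0788 for Nolc1 and 0.116 for Rrp9. Leaving out mouse B, C or D took the count of called members to 5, 2 and 5. The share of all genes called without a mouse is not given here, so these counts show nothing particular to the members. Mice A and B alone gave 0 called members, with 2 libraries a group and 4.0% of all genes called, and mice C, D and E alone gave 9, with 27.2% of all genes called. Nhp2 had a log2 fold change of 0.21 in mice A and B and 0.49 in mice C, D and E, and without mouse C its adjusted p was 0.0563. In the wider list 8 were higher and 4 lower, 12 in all. That is 7.08% and 3.54% of the list, beside 9.59% and 10.7% of all genes. The mouse block called 26 of the list, and fits without mouse C, D or E called 6, 7 and 7. Of the 18 proliferation markers 0 were higher in this comparison, beside 9.59% of all genes, and 3 were lower (16.7%), beside 10.7%.

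With iBET present, 4 members (Bms1, Imp4, Noc2l and Nip7) were higher and 1 (Bop1) lower with IC than with Ova. That is 11.9%, against 11.8% of all genes, 5.19% higher and 6.63% lower. With the mouse as a block 7 were higher and 4 lower, where 14.2% of all genes were higher and 14.7% lower. With library size only, which put the median of all genes at -0.12, the split turned to 0 higher and 3 lower, beside 2.51% and 16.3% of all genes. The members' median log2 fold change was 0.02, beside -0.01 over all genes.

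Imp4 (chr1:34439851-34449356, plus strand) had 54.4, 47.7, 57.2, 50.4 and 53.6 CPM with iBET and Ova and 62.3, 60.6, 68.5, 60.2 and 61.9 CPM with iBET and IC, without overlap. In the DMSO groups, where it was also called, it had 47.6, 39.4, 46.0, 43.8 and 44.8 CPM with Ova and 57.0, 50.4, 56.1, 47.6 and 59.3 CPM with IC. Its log2 fold change in the iBET groups was 0.25 (SE 0.0689, adjusted p = 0.0222). Without mouse A, B, C, D or E in turn the adjusted p was 0.0554, 0.0669, 0.0771, 0.0709 and 0.0544.

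Noc2l (chr4:156236010-156247616, plus strand), which acts in early steps of large subunit assembly, had 61.4, 58.4, 65.2, 63.5 and 71.4 CPM with iBET and Ova and 73.5, 76.1, 76.7, 70.9 and 77.8 CPM with iBET and IC. The groups overlapped by mouse E of the Ova group and mouse D of the IC group, and each mouse was higher with IC. The log2 fold change was 0.23 (SE 0.0689, adjusted p = 0.0351), and without mouse A, B, C or D the adjusted p was 0.123, 0.133, 0.143 and 0.0907. Library size only gave an adjusted p of 0.178 for Imp4 and 0.281 for Noc2l.

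Nip7, which acts in large subunit rRNA processing, was called in both IC comparisons, and went from 24.9 ± 2.67 to 33.2 ± 0.745 CPM with DMSO and from 32.8 ± 2.91 to 39.0 ± 3.87 CPM with iBET (SD, n = 5). Without mouse A, C or D no member was called in the iBET groups, and without mouse B 1 was called. The share of all genes called in those fits is not given here either. In the wider list 2 were higher and 0 lower, 1.77% and 0%, beside 5.19% and 6.63% of all genes. At an unadjusted p under 0.05 the list had 14 higher and 6 lower by edgeR, and 15 and 7 by DESeq2. The share of all genes at that unadjusted level is not given here. Of the list 20 were called under the mouse block and 13 with library size only, where the shares of all genes are those given above. Of the 18 proliferation markers 0 were higher, beside 5.19% of all genes, and 5 were lower (27.8%), beside 6.63%.

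**Figure D4:**
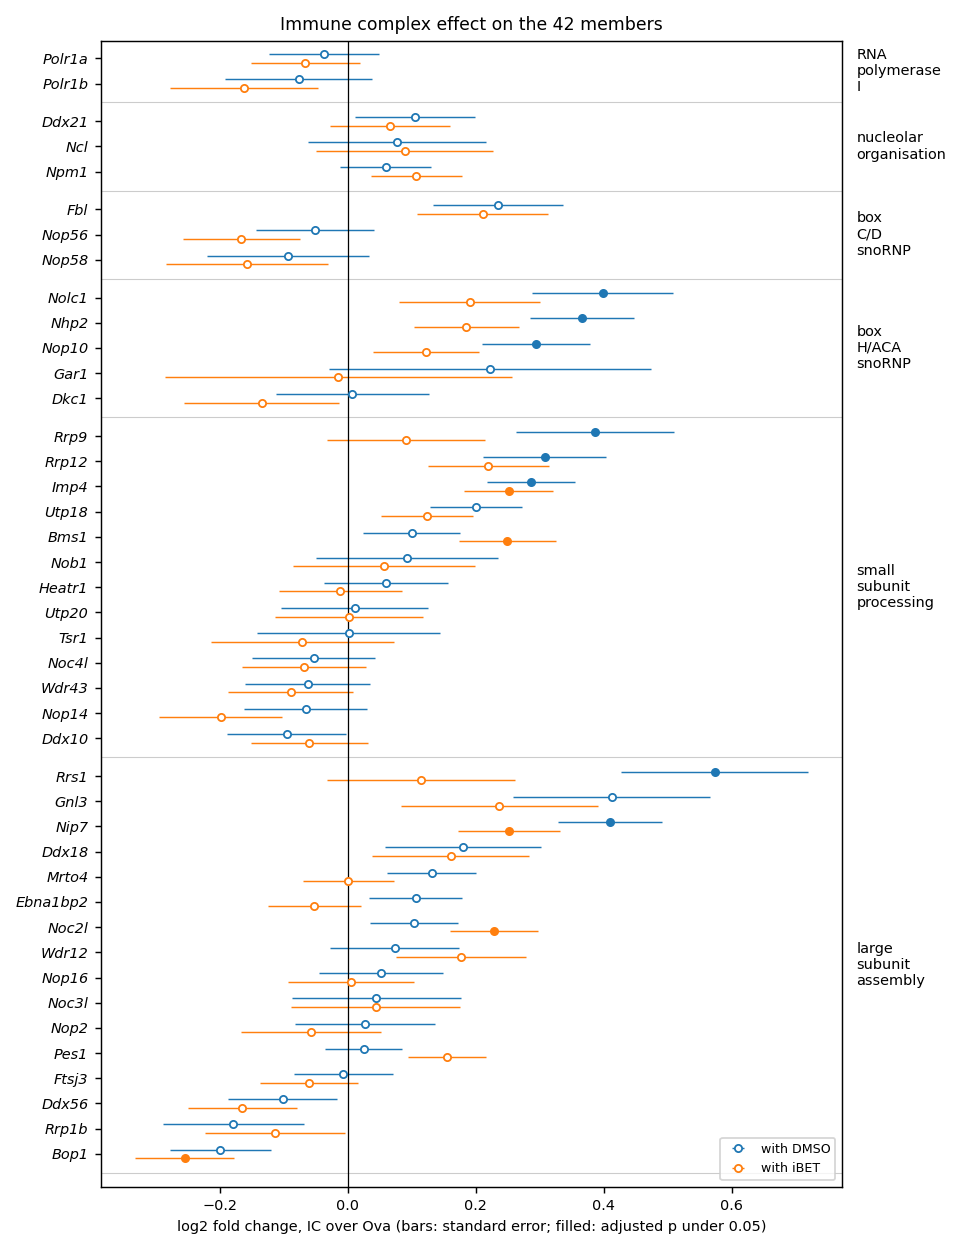
Log2 fold change of IC over Ova (x axis) for the 42 members, grouped by role, with DMSO (blue) and with iBET (orange). Points are edgeR estimates, bars are standard errors and filled points have an adjusted p under 0.05, and 8 members with DMSO and 5 with iBET are filled.

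The last comparison asks whether the iBET effect differed between IC and Ova. By edgeR 0 of the 42 members were called, as were 5 of all genes tested, 0.0401%, and DESeq2 also called 0. At an unadjusted p under 0.05, 3 members, all lower, passed with the mouse as a block, which called 0 after adjustment. The share of all genes at that unadjusted level is not given here, so neither the count nor its direction is read as particular to the members. Without the block 1 member passed at that level by edgeR and by DESeq2, Rrs1. Its iBET log2 fold change with IC was -0.45 and with Ova 0.01, a difference of -0.46 (standard error 0.207, adjusted p = 1), lower in 4 of 5 mice. Without IC, Rrs1 was at 15.7 ± 3.26 CPM (DMSO) and 15.8 ± 2.99 CPM (iBET), and with IC at 23.3 ± 2.63 and 17.1 ± 2.63 CPM (SD, n = 5). Mice C, D and E alone gave a difference of -0.76 and mice A and B alone -0.0026. Mice A and B went opposite ways, however. The within-mouse iBET difference in log2 CPM was -0.57 with Ova and -0.23 with IC in mouse A, and 0.37 and -0.15 in mouse B.

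Rrp9 followed with a difference of -0.30 (standard error 0.174, adjusted p = 1). Each of 5 mice showed this direction. Mice C, D and E alone gave -0.48, mice A and B alone -0.02. Nhp2 had a difference of -0.18 (standard error 0.115, adjusted p = 1), lower in 4 of 5 mice. Nhp2 had 56.4, 50.6, 60.3, 49.1 and 53.0 CPM with DMSO and IC and 45.8, 44.6, 46.1, 42.6 and 42.0 CPM with iBET and IC, and 49.7, 41.8, 37.7, 39.0 and 40.8 and 44.2, 36.7, 36.5, 34.8 and 42.3 CPM in the Ova groups. The iBET groups with IC lay below the DMSO groups in every mouse, and with Ova mouse E went the other way. The median difference over the 42 members was -0.06, beside 0.002 over all genes.

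**Figure D5:**
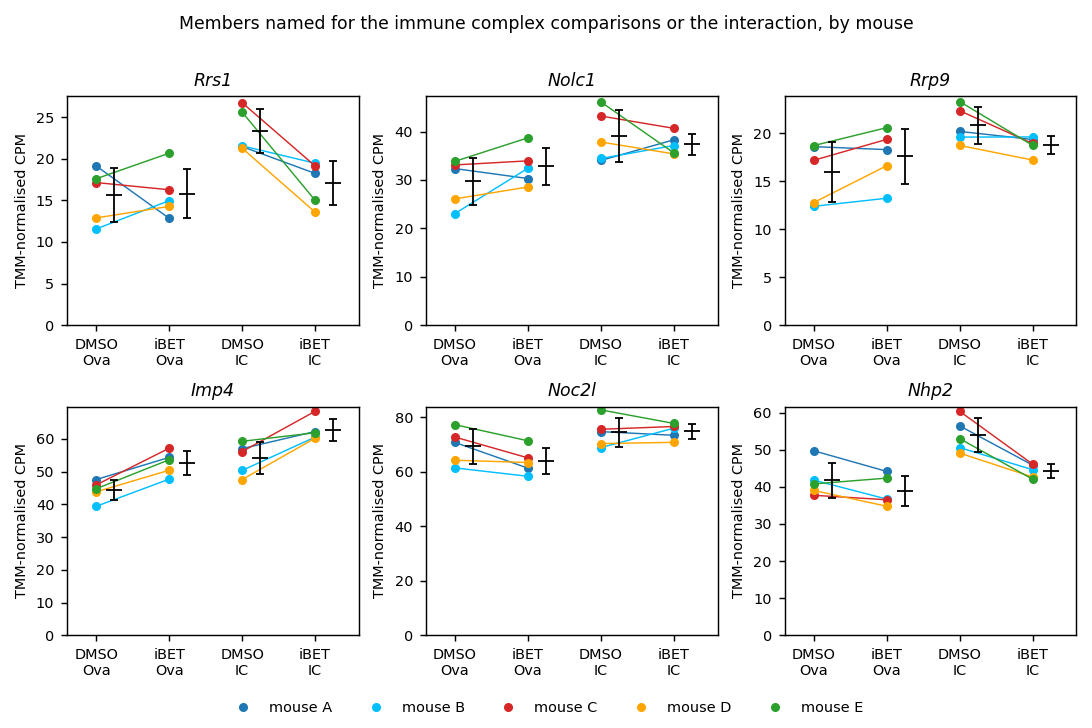
CPM of 6 members in each library (y axis, from 0) in the 4 groups, with lines joining the DMSO and the iBET library of a mouse and black marks giving mean and SD beside the points. Rrs1 with DMSO and IC lies at 21.3 to 26.7 CPM, above the other 3 groups.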

How the data were processed

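The 42 members and all gene and marker lists were chosen with earlier results of these data known. BMDCs of 5 mice were sequenced in 4 groups. The labels describe cells sorted into lysis buffer, whereas the paper's methods describe lysis in culture and name no sort, and libraries were made with a SMARTer pico kit from total RNA. Per the labels and the paper's methods, the authors used Trim Galore, HISAT2 on mm10 and featureCounts, and deposited raw counts per gene together with the same counts divided by size factors, named here a normalised signal. The methods also state batch effect removal with sva, without naming the batches, and both deposited tables are without it. No annotation, strand setting or rule for reads matching several genes is given in the sources used here, and the labels and methods differ on whether iBET was added with the stimulus or 30 minutes before it. Gene positions were matched by symbol to GENCODE M21 on GRCm38.

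Counts of all 20 libraries entered 1 fit in edgeR 4.0.16 (R 4.3.3) with group as the term, TMM scaling, filterByExpr, quasi-likelihood F tests and Benjamini-Hochberg adjustment over 12465 genes. CPM values are TMM-scaled, and SE is the size of the log2 fold change over the square root of F. The self-test on simulated counts was run before the fits. Libraries of the same mouse, which the mouse label pairs, deviated together from their group means (mean correlation across genes 0.524, lowest 0.307, over 30 pairs). For different mice in different groups the mean was -0.127 over 120 pairs. The split of mice A and B from C, D and E enters both values, so they do not measure pairing by mouse alone. Library depth, 16447491 to 29245150 counts, limits low members such as Gar1 most. No 2 libraries of a group agreed within counting noise. The alternatives were the mouse as a block, DESeq2 1.42.0, surrogate variables (sva 3.50.0, 3 variables), other scalings, no filter, limma 3.58.1 on the deposited normalised signal (log2, pseudocount 1), the compared groups only, each mouse left out, and mice A and B or C, D and E alone, a split first made in earlier work on these data.

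Named with their own test were Polr1a, Polr1b, Npm1, Ncl and Fbl; per role class and pairwise comparison, the called member with the largest change among those moving 1 way in 5 of 5 mice; in each iBET comparison the 5 largest rises and 5 largest falls of that kind; and the 3 smallest interaction p-values. Where a mean is given for another member, or a count of 5 or fewer is named, the gene was chosen after its values were seen. Promoter windows are from RefSeq on GRCm38.p6.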

Additional observations from a re-analysis of the deposited data

Results flagged for a closer look

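In each of the 4 groups of the 19 members named with values, the library farthest from the rest was set against Dixon's critical value of 0.71 for 5 samples. Of 76 groups, 4 held a library that stood apart, and chance alone flags about 1 in 20. Ncl had 253.2 CPM in mouse A with iBET and IC, below the next library at 309.8 CPM. Fbl had 43.37 CPM in mouse A with DMSO and IC, where the nearest library had 57.46 CPM. Nop16 in mouse B with DMSO and Ova was at 21.82 CPM, the nearest at 26.3 CPM. Imp4 in mouse C with iBET and IC was at 68.46 CPM, above the next at 62.28 CPM. No member's iBET effect differed between IC and Ova past the threshold.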

How the results depend on the processing

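The iBET counts (25 members with Ova, 24 with IC) stayed within 1.5 times under the alternatives run, except with mice A and B alone, which gave 14 with IC. The leave-one-mouse-out range was 19 to 22 with Ova and 19 to 23 with IC. The IC counts moved more. For most settings of this section the share of all genes called is not given here, so the moves are not read as particular to the members. In the DMSO groups (8 members) the mouse block gave 13, DESeq2 with the block 13, library size only 4, the compared groups alone 5 and mice A and B alone 0, and leaving out a mouse gave 2 to 10. In the iBET groups (5 members) the same settings gave 11, 11, 3, 2 and 0, no filter gave 1, mice C, D and E alone gave 1, and leaving out a mouse gave 0 to 4. Among the wider list of other ribosome biogenesis genes, IC in the DMSO groups (12 called) gave 26 with the block, 26 with DESeq2 and the block, 7 in the compared groups alone, 0 in mice A and B, and 6 to 12 without 1 mouse. IC in the iBET groups (2 called) gave 20 with the block, 22 with DESeq2 and the block, 5 with DESeq2, 13 with library size only, 1 without the filter, 10 with surrogate variables and 1 to 2 without 1 mouse.

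For 35 pairs of a named member and a comparison, 592 alternatives were run. The direction and the call held in 532, the call was lost in 58, of which 30 leave out a mouse, 2 calls were gained and 0 directions turned. The pairs whose direction and call held throughout numbered 19. The mouse block changed the call of Polr1b with Ova, described above, and of no other named pair. Among members outside the named pairs it added the iBET calls given above for Nop14, Nop2, Pes1, Wdr12 and Noc2l. The causes of these shifts were not tested. The low counts of Gar1 limit its precision. In fits without the mouse block, loss of 1 of 5 mice decides several calls near the threshold.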
